A study of Mus musculus with 2 samples.

Results

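The transcription factors Tbx4, Tbx5, Osr1, Osr2, Twist1, Twist2, Tcf21, Meox2 and Snai2, which are known for setting mesenchymal identity, were followed through the lungs of mouse pups with and without blockade of Hedgehog ligands. They are 9 of the 29004 features counted, taken by gene symbol, and all 9 were detected. The first library, 5E1, came from pups given the anti-Hedgehog antibody 5E1, and the second, IgG, from pups given control IgG. All pups had the genotype Gli1CreERT2/+,R26RtdT/+, in which the Gli1 locus drives a tamoxifen-inducible Cre that switches on a tdTomato reporter, and all had received tamoxifen at postnatal day 1. Antibody was injected at day 3 and whole lungs were dissociated at day 6. Each library pooled the lungs of 3 pups, so no difference between the antibodies has a replicate check and no p-value is given. Intervals are exact 95% intervals of counting error only.

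Tbx4 and Tbx5 are T-box factors that act upstream of Fgf10 when lung buds form and later mark lung mesenchyme. Osr1 and Osr2 are odd-skipped zinc finger factors, and Osr1 acts in the early mesoderm from which the lung is specified. Twist1, Twist2 and Tcf21 are basic helix-loop-helix (bHLH) proteins, Meox2 is a homeobox factor of paraxial mesoderm and vascular cells, and Snai2 is a zinc finger repressor known from the loss of epithelial character. Hedgehog ligands made by the lung epithelium signal to this mesenchyme, where Ptch1, Hhip and Gli1 are direct targets of the pathway.

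The 5E1 library held 58890639 UMIs (barcoded transcript molecules) in 9454 cells, and the IgG library 77436890 in 13509 cells. Median depth was 4636 UMIs per cell in 5E1 and 4541 in IgG, and 184 barcodes occurred in both libraries. Levels are a gene's UMIs per 1000000 UMIs of a cluster or class (CPM), with clusters 1 to 23 as the authors numbered them and classes named after their marker genes. The mesenchymal classes held 3620 cells in 5E1 and 6938 in IgG. Ptch1 stood at 9.62 CPM in 5E1 and 79.0 CPM in IgG in alveolar myofibroblast-like cells (clusters 12, 21 and 23), the direction the antibody label gives. The libraries differed in sex: an Xist UMI was found in 30.7% of mesenchymal cells in 5E1 and in 97.1% in IgG. Over all kept cells Y-linked UMIs numbered 5009 in 5E1 and 4 in IgG. Cells of 5E1 that held an Xist UMI but none from the Y chromosome, called female 5E1 cells, were therefore also set against IgG. They also differed in makeup, since cluster 23 held 50.0% of alveolar myofibroblast-like cells in 5E1 and 23.4% in IgG, and cluster 20 held 40.1% of matrix fibroblast-like cells (clusters 14, 19 and 20) in 5E1 and 8.50% in IgG. Cluster 14 is shallow and led in part by the platelet genes Itga2b and Clec1b, cluster 16 by Ppbp, and cluster 12 by genes of dividing cells. Immune clusters 1 to 8, which should lack all 9 factors, gave a background level whose source was not tested. It ran from 0.136 CPM for Twist1 to 12.1 CPM for Tcf21 in 5E1 and from 0.0647 to 21.9 CPM for the same genes in IgG. Single immune clusters ran from 4.28 to 25.2 CPM of Tcf21 in 5E1 and from 7.64 to 37.9 CPM in IgG.

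In the mm10 genome (GRCm38, GENCODE vM21) the genes lie on 7 chromosomes. Tbx4 is at chr11:85886422-85916097, Tbx5 at chr5:119832668-119885219, Osr1 at chr12:9570116-9581500, Osr2 at chr15:35296098-35303305 and Twist1 at chr12:33957671-33959829. Twist2 is at chr1:91801461-91848028, Meox2 at chr12:37108540-37179534 and Snai2 at chr16:14705852-14709385, all on the plus strand like those before, while Tcf21 at chr10:22817281-22820174 is on the minus strand. Osr1 overlaps the opposite-strand transcript 1700022H16Rik, and Twist2 overlaps the antisense gene Gm29100, both of which were counted as features of their own, and since the strand setting of the counting is not given, reads of such pairs may not have been told apart.

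The 250 bases upstream of the start site (RefSeq, GRCm38.p6) are shown for the 2 pairs the results turn on. Tcf21 and Meox2 were found in the same cells but differed in opposite directions between the libraries, and Twist1 and Twist2 are paralogues found mostly in different classes. Capitals mark TATAAA or, on the other strand, TTTATA. The Tcf21 window is chr10:22820144-22820393 on the minus strand, the Meox2 window chr12:37108290-37108539, the Twist1 window chr12:33957421-33957670 and the Twist2 window chr1:91801211-91801460, all 3 on the plus strand.
Tcf21: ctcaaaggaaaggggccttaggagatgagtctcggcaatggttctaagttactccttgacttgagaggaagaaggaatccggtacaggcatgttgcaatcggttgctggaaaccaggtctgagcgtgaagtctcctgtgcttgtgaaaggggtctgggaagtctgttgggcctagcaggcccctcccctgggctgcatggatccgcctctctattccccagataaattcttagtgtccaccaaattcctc
Meox2: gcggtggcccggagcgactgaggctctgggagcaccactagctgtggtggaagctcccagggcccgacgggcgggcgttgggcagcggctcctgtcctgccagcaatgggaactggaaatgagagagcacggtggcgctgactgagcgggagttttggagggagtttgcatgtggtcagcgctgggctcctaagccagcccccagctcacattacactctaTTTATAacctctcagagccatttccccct
Twist1: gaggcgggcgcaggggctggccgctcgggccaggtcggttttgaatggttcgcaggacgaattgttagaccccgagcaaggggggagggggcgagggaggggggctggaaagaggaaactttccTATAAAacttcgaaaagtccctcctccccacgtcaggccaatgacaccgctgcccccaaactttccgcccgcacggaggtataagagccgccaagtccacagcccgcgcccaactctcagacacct
Twist2: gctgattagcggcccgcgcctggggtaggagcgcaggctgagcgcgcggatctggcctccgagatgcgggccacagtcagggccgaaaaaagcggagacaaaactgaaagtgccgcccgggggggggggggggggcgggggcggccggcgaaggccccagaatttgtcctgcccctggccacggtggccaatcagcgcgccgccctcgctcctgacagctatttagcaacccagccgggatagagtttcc
The Meox2 match begins at -29 and the Twist1 match at -126 from the start, and neither Tcf21 nor Twist2 has one; 12.4% of the 32851 upstream windows in the table hold these letters. The sequence GACCACCCA, a GLI motif, or its reverse complement is in 0.225% of windows and in none of these 4, nor in that of Tbx4, the 5th of the 9 genes with a window in the table. The E-box CAGCTG is in 13% of windows and only in that of Tbx4 among these 5, at -243.

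Tcf21 and Meox2 were genes of matrix fibroblast-like cells, fibroblasts of the alveolar wall. Of all Tcf21 UMIs, 72.8% in 5E1 and 74.9% in IgG lay in this class, and of all Meox2 UMIs 71.5% in 5E1 and 75.6% in IgG. Tcf21 stood at 1398 CPM in 5E1 and 1101 CPM in IgG in cluster 20, at 1173 and 923 CPM in cluster 19, and at 962 and 1022 CPM in cluster 14, with 5E1 first in each pair. Meox2 was likewise highest in cluster 20, with 383 CPM in 5E1 and 480 CPM in IgG in cluster 20, 334 and 427 CPM in cluster 19, and 224 and 331 CPM in cluster 14. Adventitial fibroblast-like cells (cluster 18), which sheathe airways and vessels, came next for both genes, with 346 CPM of Tcf21 in 5E1 and 306 CPM in IgG and with 135 CPM of Meox2 in 5E1 and 165 CPM in IgG. Beyond that the pair parted. Pericyte-like cells (cluster 13), the mural cells of capillaries, held 185 CPM of Tcf21 in 5E1 and 201 CPM in IgG but only 16.6 CPM of Meox2 in 5E1 and 22.3 CPM in IgG. Neighbouring clusters in the Tcf21 order differed beyond counting error down to pericyte-like cells, except clusters 20 and 14 in IgG. Outside the mesenchyme Tcf21 was the one factor past 20 CPM, for example at 28.8 CPM in 5E1 and 30.7 CPM in IgG in cluster 11, an endothelial cluster. Clusters were built from all genes and Meox2 and Tcf21 are among the 10 leading genes of clusters 19 and 20, so these levels are a description.

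Both genes were also counted cell by cell. With each cell thinned to 1000 UMIs, a Tcf21 UMI was found in 69.2% of matrix fibroblast-like cells in 5E1 (705 of 1019) and 58.4% in IgG (1337 of 2291), and in 0.640% of immune cells in 5E1 and 1.44% in IgG. Without thinning the shares of matrix fibroblast-like cells were 95.4% in 5E1 and 93.1% in IgG, at median depths of 4426 and 4483.5 UMIs, and those of immune cells 2.56% in 5E1 and 4.50% in IgG, at 3443.5 and 3166.5 UMIs. Unthinned, 713 of 1032 of these cells in 5E1 and 1714 of 2306 in IgG held UMIs of both genes, close to the 702 cells in 5E1 and 1666 in IgG that the product of the shares gives, and 97.01% of the Meox2-positive cells in 5E1 and 95.8% in IgG also held Tcf21. Over the 23 clusters the logarithms of their levels correlated with r = 0.96, and the genes most like Tcf21 were Meox2, Adra1b and Adh1. Those most like Meox2 were Adh1, Tcf21 and Slc38a5. These correlations describe clusters that share 2 libraries and carry no test.

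Tbx5, Tbx4 and Snai2 formed a second pattern that ran across pericyte-like, alveolar myofibroblast-like and matrix fibroblast-like cells. Tbx5 was highest in pericyte-like cells, at 196 CPM in 5E1 and 182 CPM in IgG, and this lead over the next cluster exceeded counting error in both libraries. Clusters 23 and 12, alveolar myofibroblast-like cells that lay down elastin at the septal tips, followed in 5E1 with 145 and 133 CPM. In IgG they held 107.7 and 103 CPM. Cluster 14 stood at 108.5 CPM there, from 65 UMIs, and did not differ from cluster 23 beyond counting error. Smooth muscle-like cells (clusters 16 and 22) held 40.5 CPM of Tbx5 in 5E1 and 40.0 CPM in IgG, and adventitial fibroblast-like cells 27.4 CPM in 5E1 and 28.6 CPM in IgG. Tbx4 was spread over the same classes, with 56.4 CPM in 5E1 and 38.7 CPM in IgG in alveolar myofibroblast-like cells, 60.2 and 40.4 CPM in pericyte-like cells, and 44.4 and 42.7 CPM in matrix fibroblast-like cells. Its highest cluster in IgG was cluster 14, at 98.5 CPM from 59 UMIs, and its neighbours in the 5E1 order down to cluster 14 did not differ beyond counting error. Snai2 was highest in matrix fibroblast-like cells, with 127 CPM in 5E1 and 144 CPM in IgG, ahead of alveolar myofibroblast-like cells with 104 CPM in 5E1 and 91.3 CPM in IgG, although clusters 14, 20, 12, 19 and 23 followed each other within counting error in 5E1. Mesothelial-like cells (cluster 17) held 6.95 CPM of Snai2 in 5E1 and 11.2 CPM in IgG, near the immune level of 3.75 CPM in 5E1 and 6.66 CPM in IgG. Tbx4 and Tbx5 correlated with r = 0.97 over clusters, each being the gene most like the other, and Tbx4 and Snai2 with r = 0.94. Unthinned, 185 alveolar myofibroblast-like cells in 5E1 and 260 in IgG held UMIs of Tbx4 and Tbx5 together, against 150 and 189 from the product of the 2 shares in each library, which takes no account of the uneven depth of cells.

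Osr1 was highest in smooth muscle-like and adventitial fibroblast-like cells. Cluster 22, smooth muscle-like, held 358 CPM in 5E1 and 318 CPM in IgG, and adventitial fibroblast-like cells 323.9 CPM in 5E1 and 324.5 CPM in IgG. Mesothelial-like cells, the lining of the pleura, held 115 CPM in 5E1 and 97.8 CPM in IgG, and cluster 16 held 107 CPM in 5E1 and 91.2 CPM in IgG. Pericyte-like cells stood at 8.60 CPM in 5E1 and 7.60 CPM in IgG, close to the immune level of 2.80 CPM in 5E1 and 4.27 CPM in IgG. Osr1 was thus nearly absent from the class in which Tbx5 was highest. Thinned, 23.6% of adventitial fibroblast-like cells in 5E1 and 26.4% in IgG held an Osr1 UMI, against 0.183% of immune cells in 5E1 and 0.284% in IgG. Unthinned, these shares were 63.2% in 5E1 and 65.4% in IgG in adventitial fibroblast-like cells, and 0.843% in 5E1 and 1.19% in IgG in immune cells. The genes most like Osr1 over clusters were Eln, Loxl1 and Pcdh11x, the first of which encodes elastin and the second an enzyme that crosslinks it.

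Osr2 was narrower than Osr1. Adventitial fibroblast-like cells held 76.1% of its UMIs in 5E1 and 73.6% in IgG, at 49.6 CPM in 5E1 and 59.5 CPM in IgG, and mesothelial-like cells were next with 7.64 CPM in 5E1 and 16.5 CPM in IgG. All other mesenchymal clusters were under 5 CPM in both libraries. In adventitial fibroblast-like cells 43 cells in 5E1 and 90 in IgG held both Osr genes, which is 53.1% of the Osr2-positive cells in 5E1 and 59.6% in IgG, against Osr1 shares of 63.2% and 65.4% in all cells of the class. An Osr1 UMI was therefore no more frequent in cells with an Osr2 UMI than in the class at large. Lum, Dcn and Cpz, of which Lum and Dcn encode small proteoglycans of collagen fibrils, were the genes most like Osr2, and both Osr2 and Twist2 are among the 10 leading genes of cluster 18.

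The Twist paralogues had their largest shares of UMIs in different classes. Twist2 lay in adventitial fibroblast-like cells with 65.4% of its UMIs in 5E1 and 62.1% in IgG, at 193 CPM in 5E1 and 220 CPM in IgG, ahead of pericyte-like cells with 60.2 CPM in 5E1 and 49.4 CPM in IgG. Matrix fibroblast-like cells held 5.22 CPM of Twist2 in 5E1 and 7.31 CPM in IgG. Twist1 was scarce everywhere, with 48 UMIs in all cells of 5E1 and 143 in IgG. Of these, 43.8% in 5E1 and 76.9% in IgG were in alveolar myofibroblast-like cells, and matrix fibroblast-like cells gave 2 UMIs in 5E1 and 1 in IgG. In 5E1 Twist1 levels in cluster 23, pericyte-like and adventitial fibroblast-like cells were 4.24, 3.68 and 3.12 CPM (15, 6 and 9 UMIs). Neighbours in this order did not differ beyond counting error. The same cells of IgG were at 10.3, 2.85 and 2.30 CPM. Twist1 and Twist2 correlated with r = 0.59 over clusters. In alveolar myofibroblast-like cells Twist1 and Twist2 UMIs met in 1 cell in 5E1 and in 12 in IgG, against 0.797 and 8.53 cells from the product of the shares. Twist1 and Meox2 had the lowest correlation of any pair among the 9, with r = -0.02 over clusters, and Tvp23a, Kcnn2 and Ccdc3 were the genes most like Twist1. Cadm3, Dact1 and Lama2 were most like Twist2, and Egflam, Gpm6b and Ism1 most like Snai2.

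**Figure D1:**
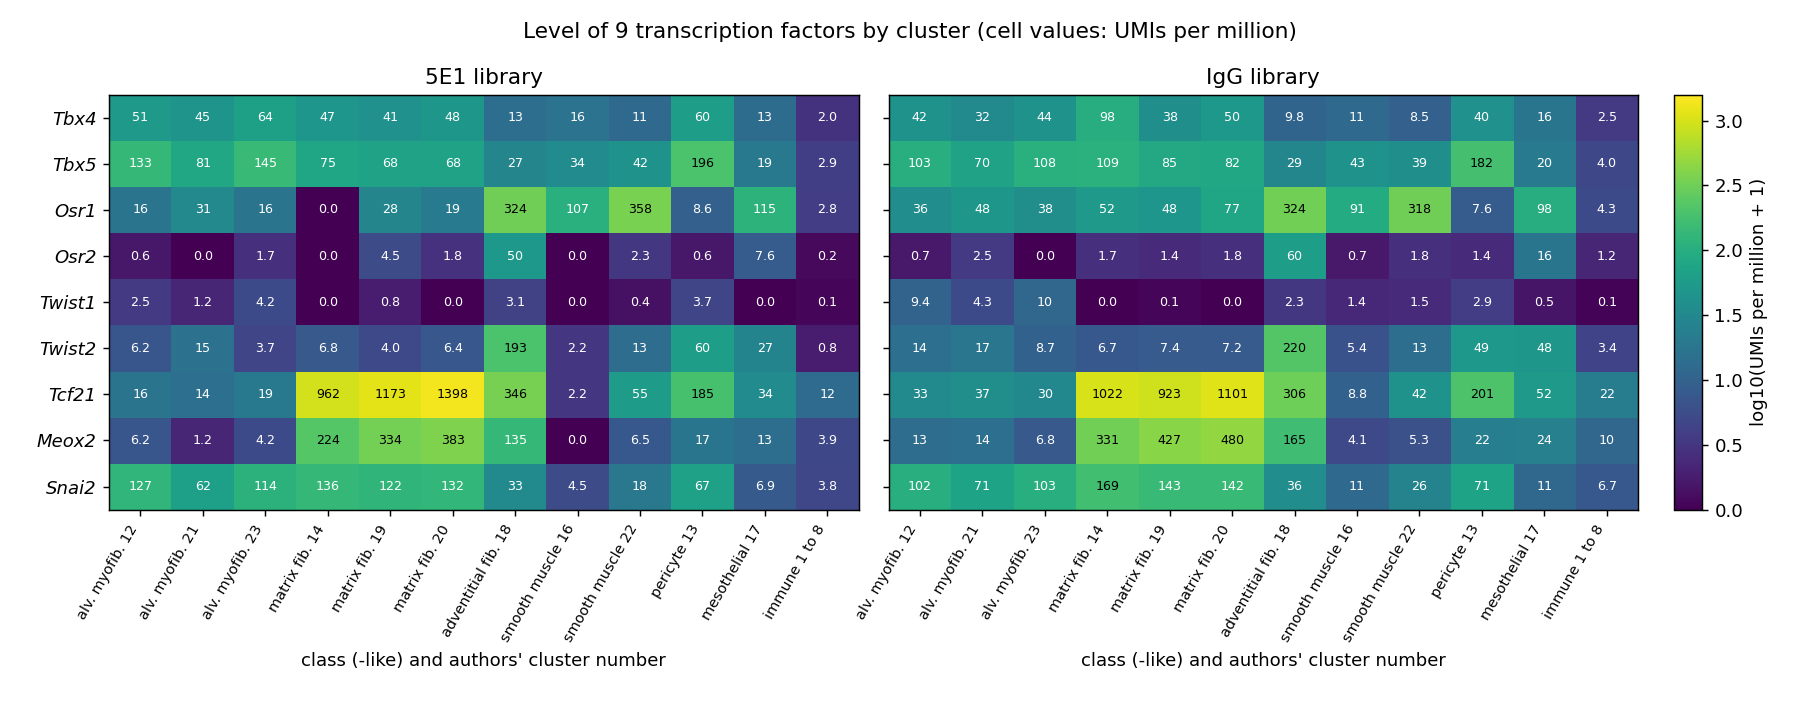
Level of each of the 9 factors (rows) in the 11 mesenchymal clusters and the immune clusters together (columns), as CPM printed in each cell and coloured on a log10 scale, for the 5E1 library on the left and the IgG library on the right. Tcf21 and Meox2 peak in the matrix fibroblast clusters, Osr1 in clusters 18 and 22, Osr2 and Twist2 in cluster 18 and Tbx5 in cluster 13, in both libraries.

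In alveolar myofibroblast-like cells the factors differed between the libraries in opposite directions: Osr1, Twist1, Twist2, Tcf21 and Meox2 were lower in 5E1, and Tbx4, Tbx5 and Snai2 were higher, while Osr2 had only 7 UMIs in 5E1 and 17 in IgG. Meox2 and Tcf21 were at or not far above the level of the immune clusters in this class, and they are included in the counts and the median that follow. All 9 had at least 20 UMIs over both libraries, 3 were at least 2-fold lower in 5E1 and 0 at least 2-fold higher, while of the 12668 genes with at least 20 UMIs in this class 3.66% were at least 2-fold lower and 2.08% at least 2-fold higher. On the log2 scale, with 0.5 UMI added to both sums, the ratio of 5E1 over IgG had a median of -0.94 over the 9 factors and -0.08 over all these genes. Cluster 12 held 15.2% of the class in 5E1 and 30.4% in IgG, so values are also given by cluster.

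Osr1 had 135 UMIs or 19.7 CPM (16.5 to 23.3) in 5E1 and 577 UMIs or 40.6 CPM (37.4 to 44.1) in IgG in alveolar myofibroblast-like cells, which is 2.07-fold lower in 5E1 (1.71 to 2.51). It was lower in each of the 3 clusters, by 2.23-fold in cluster 12, 1.54-fold in cluster 21 and 2.37-fold in cluster 23, and the intervals of both libraries did not overlap in any of them, although in female 5E1 cells the ratio interval of cluster 12, 0.314 to 1.10, includes 1. Twist1 had 21 UMIs in 5E1 and 110 in IgG, or 3.06 and 7.75 CPM, 2.53-fold lower in 5E1 (1.58 to 4.25). Its level was 4.24 CPM in 5E1 and 10.3 CPM in IgG in cluster 23, 2.47 and 9.38 CPM in cluster 12, and 1.18 and 4.29 CPM in cluster 21, in each of which 5E1 was lower. Immune clusters held 2 Twist1 UMIs in 5E1 and 1 in IgG. Without the dividing cluster 12, the log2 ratio of Twist1 was -0.99, just short of 2-fold.

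Meox2 stood at 3.94 CPM in 5E1 and 11.8 CPM in IgG in alveolar myofibroblast-like cells (27 and 167 UMIs), 2.99-fold lower in 5E1 (1.98 to 4.67). The immune clusters stood at about the same levels, 3.89 CPM in 5E1 and 10.4 CPM in IgG, so no difference particular to this class was read from it. In 5E1 Meox2 was at 3.75 CPM in cells with and 4.29 CPM in cells without a reporter UMI, and Meox2 and Tcf21 met in 5 cells, against 1.91 from the product of the shares. In IgG Meox2 was at 13.3 CPM in cells with and 6.59 CPM in cells without a reporter UMI (ratio 2.01, 1.27 to 3.35), and both genes met in 55 cells, against 14.4. The part of free RNA and of doublets in these counts was not tested. Tcf21, at 16.9 CPM in 5E1 and 33.6 CPM in IgG, was not far above the immune level of 12.1 CPM in 5E1 and 21.9 CPM in IgG and close to the B cell level of 15.8 CPM in 5E1 and 37.9 CPM in IgG. Its log2 ratio was -0.99, just short of 2-fold, and passed 2-fold in female 5E1 cells (-1.13, ratio interval 0.284 to 0.675) and with the immune level subtracted (-1.30). In immune cells there were 3.12 Tcf21 UMIs per Meox2 UMI in 5E1 (2.31 to 4.29) and 2.10 in IgG (1.73 to 2.55), against 4.30 in 5E1 (2.81 to 6.80) and 2.86 in IgG (2.39 to 3.43) in alveolar myofibroblast-like cells, and 3.59 in 5E1 and 2.21 in IgG in matrix fibroblast-like cells. Twist2, at 7.14 CPM in 5E1 and 13.8 CPM in IgG, was above its immune level of 0.819 CPM in 5E1 and 3.43 CPM in IgG and 1.93-fold lower in 5E1 (1.41 to 2.70). It was 1.11-fold lower in cluster 21, with an interval of 0.708 to 1.79, and in female 5E1 cells its interval of the ratio, 0.309 to 1.03, includes 1.

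The T-box pair went the other way in these cells. Tbx4 had 387 UMIs or 56.4 CPM in 5E1 and 550 UMIs or 38.7 CPM in IgG, a ratio of 1.46 (1.27 to 1.66), and Tbx5 869 UMIs or 127 CPM in 5E1 and 1307 UMIs or 92.1 CPM in IgG, a ratio of 1.38 (1.26 to 1.5). Both were higher in 5E1 in each of clusters 12, 21 and 23, although the interval reached 1 for Tbx4 in cluster 12 and for Tbx5 in cluster 21. Snai2 had 104 CPM in 5E1 and 91.3 CPM in IgG, a ratio of 1.14 (1.04 to 1.25), with cluster 21 at 0.875. In the 220 female 5E1 cells of the class Osr1 stood at 19.4 CPM and Twist1, from 4 UMIs, at 2.51 CPM, close to the values of all 5E1 cells. In the same 220 cells Tbx4 was at 45.8 CPM, with a ratio to IgG whose interval of 0.913 to 1.51 includes 1, and Tbx5 at 115 CPM, with an interval of 1.07 to 1.46, while Snai2 stood at 92.8 CPM, against 91.3 CPM in IgG.

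**Figure D2:**
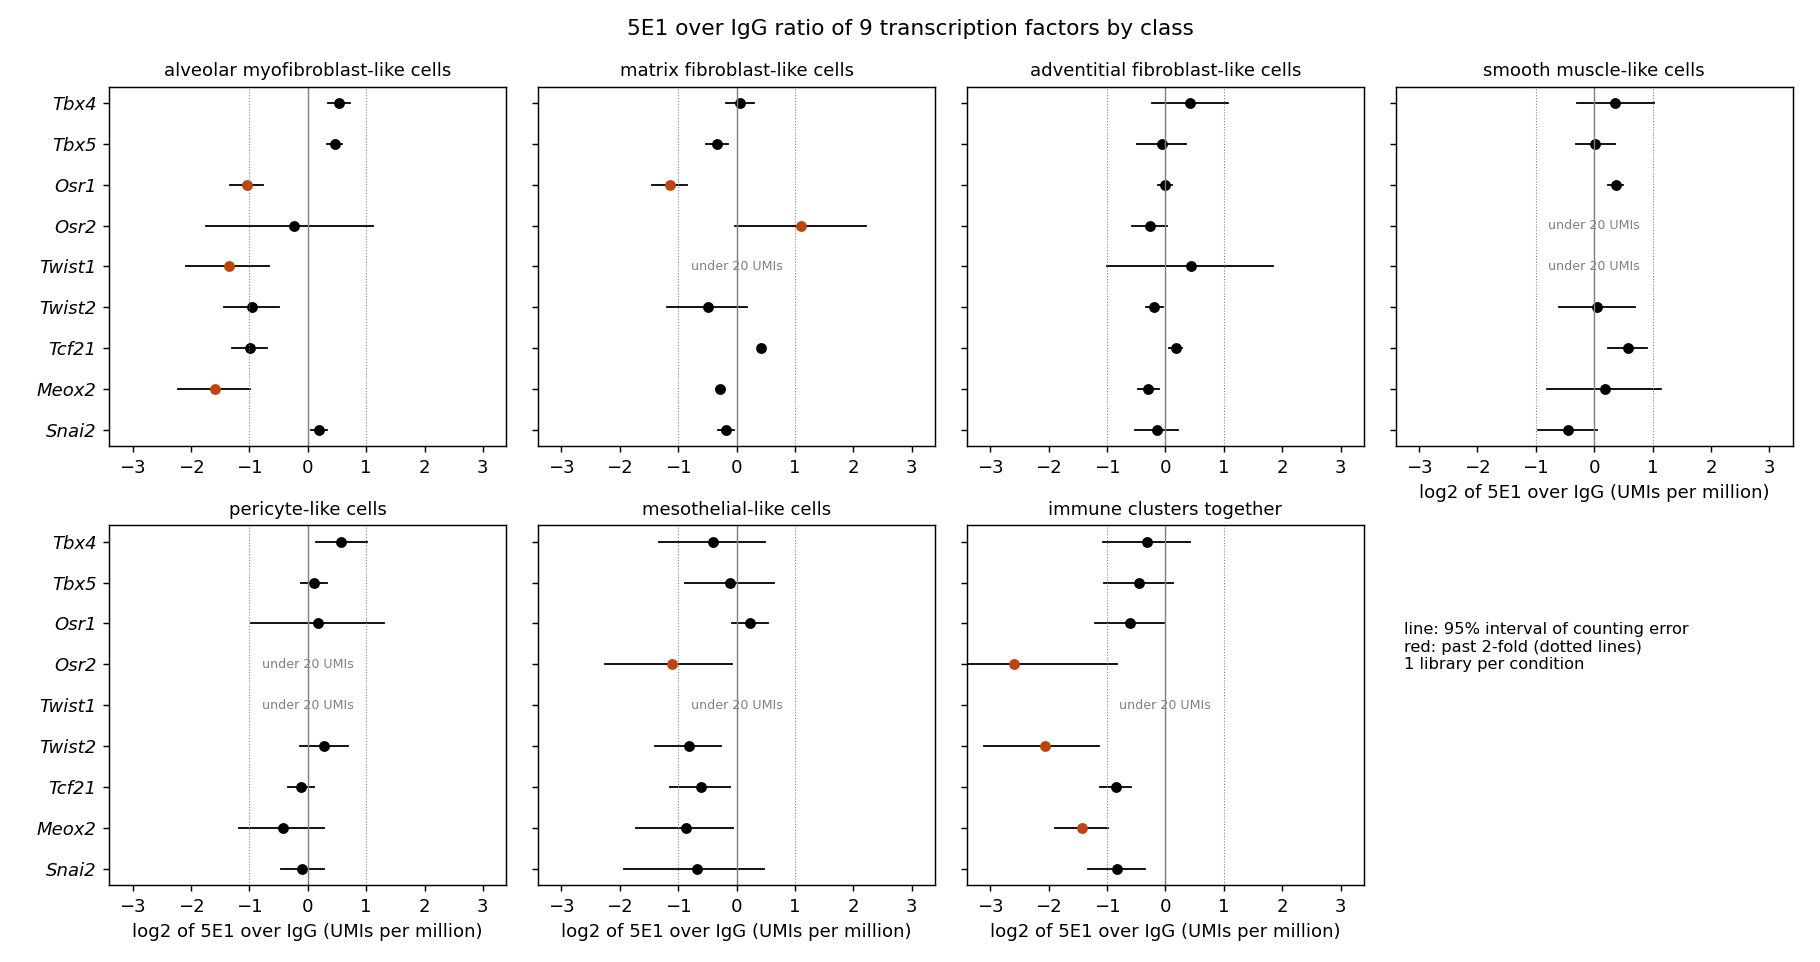
Ratio of 5E1 over IgG on a log2 scale for each factor with at least 20 UMIs, in 6 mesenchymal classes and in the immune clusters together; points are ratios of CPM, lines 95% intervals of counting error and red points those past 2-fold. Osr1 is past 2-fold only in the alveolar myofibroblast and matrix fibroblast panels, and Meox2 has about the same ratio in the immune panel as in the alveolar myofibroblast panel.

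In matrix fibroblast-like cells Tcf21 was higher and its companion Meox2 lower in 5E1, and Osr1 was again lower. Of 8 factors with at least 20 UMIs, 1 was at least 2-fold lower in 5E1 and 1 at least 2-fold higher, against 4.53% and 2.72% of the 12439 genes with at least 20 UMIs in this class, and the median log2 ratio was -0.23 over the 8 factors and -0.04 over all genes. Tcf21 had 6082 UMIs or 1269 CPM (1237 to 1301) in 5E1 and 10354 UMIs or 946 CPM (928 to 964) in IgG, a ratio of 1.34 (1.299 to 1.38). The ratio was 1.27 in cluster 19 and 1.27 in cluster 20, with no overlap of the intervals of both libraries, and 0.942 (0.779 to 1.13) in cluster 14. Meox2 had 1692 UMIs or 353 CPM (336 to 370) in 5E1 and 4676 UMIs or 427 CPM (415 to 440) in IgG, a ratio of 0.826 (0.781 to 0.873), and was lower in 5E1 in all 3 clusters. There were 3.59 Tcf21 UMIs per Meox2 UMI in 5E1 (3.405 to 3.80) and 2.21 in IgG (2.14 to 2.29).

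Osr1 in matrix fibroblast-like cells had 110 UMIs or 22.9 CPM in 5E1 and 555 UMIs or 50.7 CPM in IgG, 2.21-fold lower in 5E1 (1.80 to 2.74). The difference was widest in cluster 20, with 19.3 CPM in 5E1 and 76.6 CPM in IgG, 3.97-fold lower in 5E1 (2.71 to 5.89), and smaller in cluster 19, with 27.5 CPM in 5E1 and 47.5 CPM in IgG, 1.73-fold lower (1.33 to 2.26). Cluster 14 held 0 Osr1 UMIs in 5E1 and 31 in IgG, so that 5E1 was at least 2.55-fold lower against a floor of 3 UMIs in that cluster. Each of the 3 clusters was higher in IgG than any of them was in 5E1. In the 380 female 5E1 cells of the class Osr1 was at 23.4 CPM and Tcf21 at 1310 CPM. Thinned, an Osr1 UMI was in 2.55% of cells in 5E1 and 4.58% in IgG (8.24% and 18.6% unthinned), and the log2 ratio of the thinned counts was -0.89.

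Osr2 was the factor past 2-fold in the other direction, from 15 UMIs in 5E1 and 16 in IgG, or 3.13 and 1.46 CPM. Its ratio of 2.14 has an interval of 0.986 to 4.62 that includes 1. Tbx5 was 1.26-fold lower in 5E1 (1.11 to 1.43), with 68.2 CPM in 5E1 and 85.8 CPM in IgG, and Snai2 1.13-fold lower (1.03 to 1.25). Tbx4 stood at 44.4 CPM in 5E1 and 42.7 CPM in IgG, a ratio of 1.04 with an interval of 0.881 to 1.23. Tbx5 and Snai2 were thus higher in 5E1 in alveolar myofibroblast-like cells and lower in matrix fibroblast-like cells, a difference between classes that cannot be tested with 1 library per condition.

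Where Osr1 was most abundant it was not 2-fold lower in 5E1. In adventitial fibroblast-like cells its ratio was 0.998, with an interval of 0.919 to 1.08 that covers counting error but no spread between pups. In smooth muscle-like cells Osr1 was at 321 CPM in 5E1 and 249.2 CPM in IgG, a ratio of 1.29 (1.18 to 1.40), but clusters 16 and 22 differ in level and cluster 22 held 85.4% of the class in 5E1 and 72.4% in IgG. Within cluster 22 the ratio was 1.13 (1.03 to 1.23) and within cluster 16 it was 1.18 (0.828 to 1.65), and in female 5E1 cells of both clusters together the level was 250.2 CPM, against 249.2 CPM in IgG. Within cluster 22 alone the direction turned in female 5E1 cells, with 266 CPM against 318 CPM in IgG and a ratio interval of 0.713 to 0.980. Mesothelial-like cells gave a ratio of 1.17 (0.944 to 1.45). In female 5E1 cells the adventitial level was 332 CPM, against 324.5 CPM in IgG, with a ratio interval of 0.909 to 1.15.

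**Figure D3:**
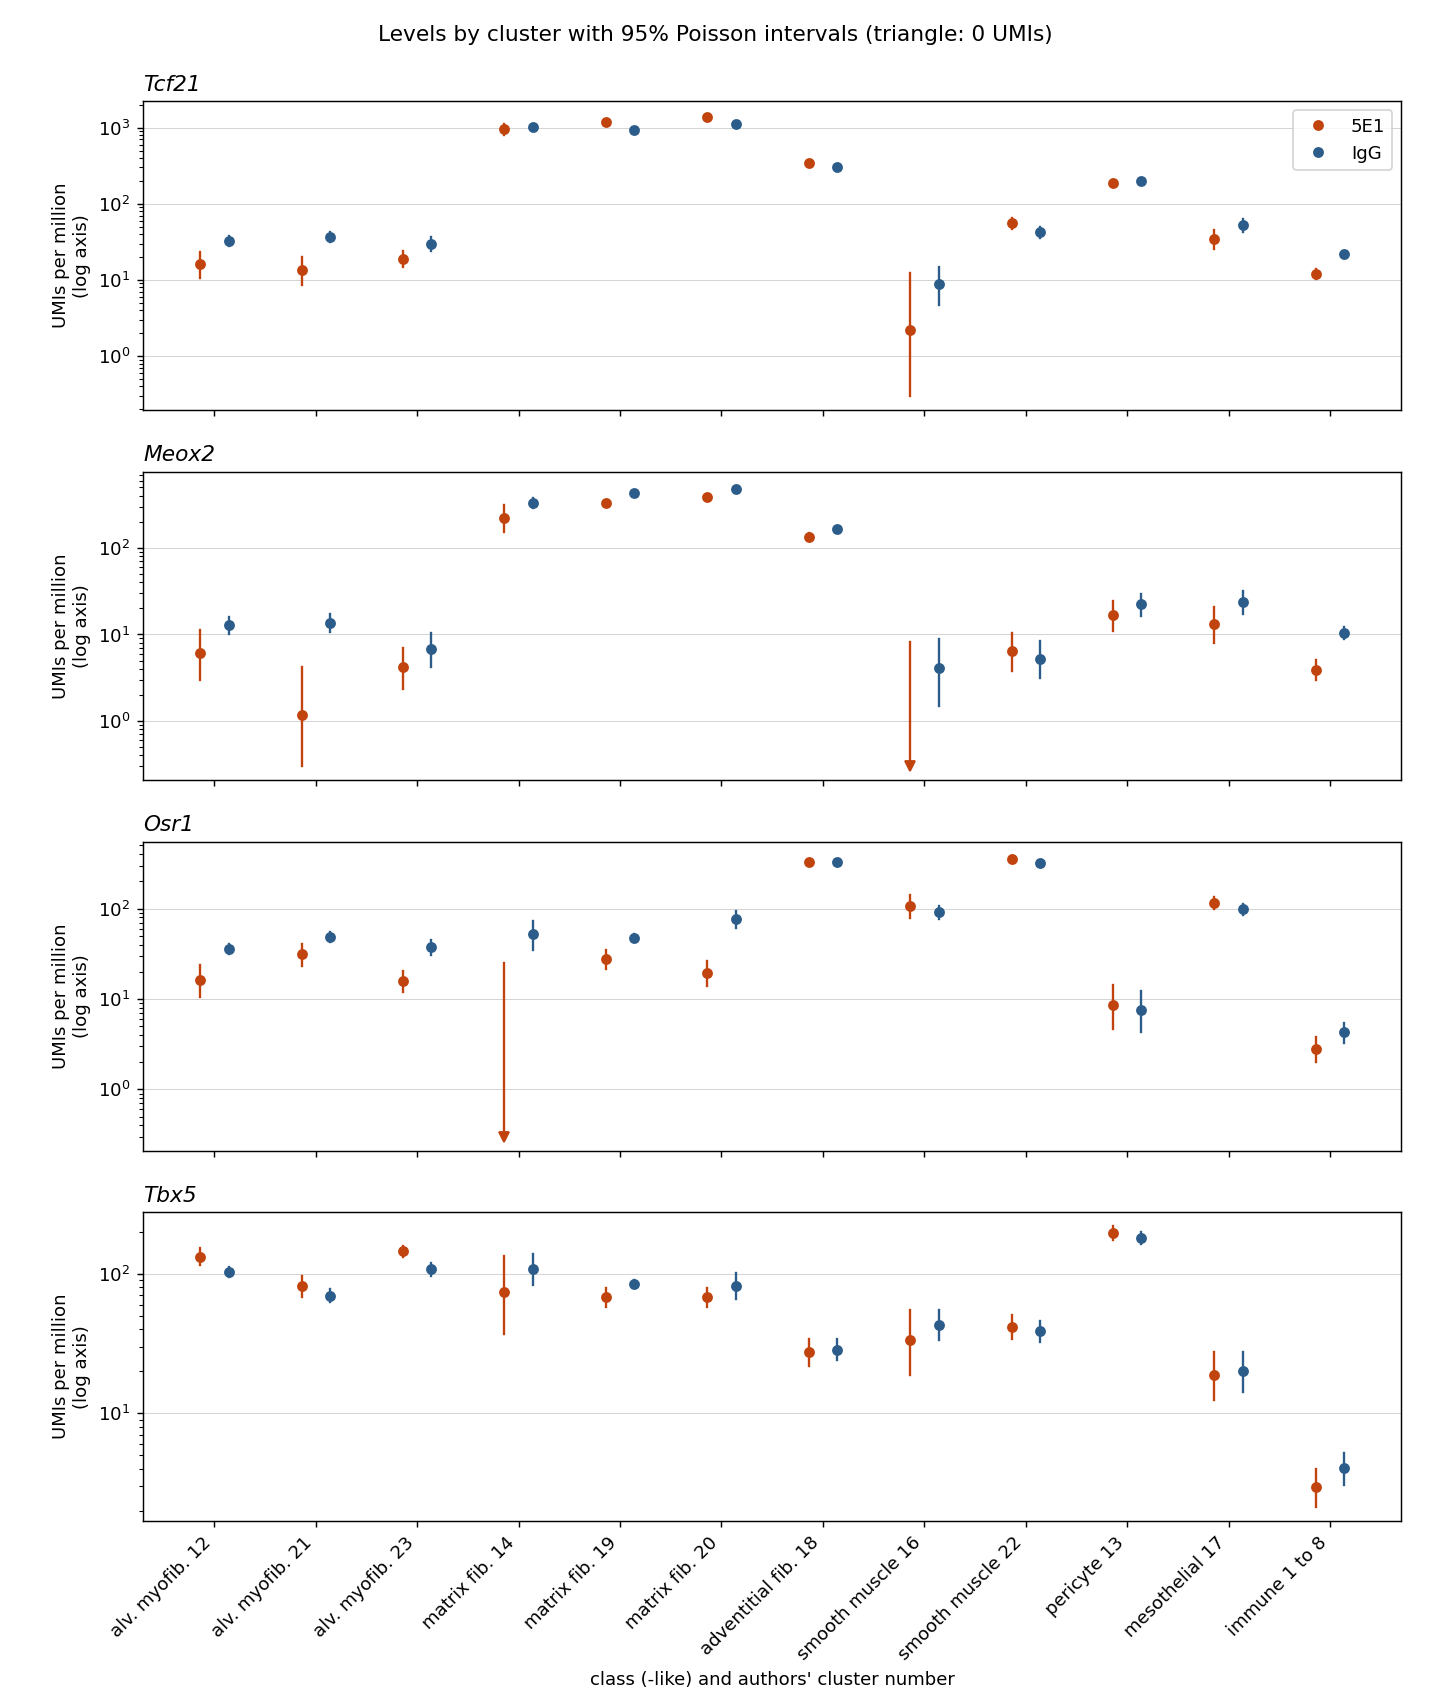
Level of Tcf21, Meox2, Osr1 and Tbx5 in CPM (log axis) by cluster, with 5E1 in red left of IgG in blue and 95% Poisson intervals as lines; a triangle marks 0 UMIs. Osr1 is lower in 5E1 in all 6 alveolar clusters on the left and level in cluster 18, while Tcf21 is higher and Meox2 lower in 5E1 in clusters 19 and 20.

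The other classes held few differences among the 9 factors. In adventitial fibroblast-like cells 0 of 9 were at least 2-fold lower and 0 at least 2-fold higher, against 2.08% and 1.44% of the genes tested there. Twist2 was at 193 CPM in 5E1 and 220 CPM in IgG, 1.14-fold lower in 5E1 (1.03 to 1.27), and Osr2 at 49.6 CPM in 5E1 and 59.5 CPM in IgG, with a ratio interval of 0.677 to 1.02. Meox2 was 1.22-fold lower in 5E1 (1.08 to 1.39) and Tcf21 had a ratio of 1.13 (1.04 to 1.22), the directions they had in matrix fibroblast-like cells. In female 5E1 cells of this class Tcf21 was at 311 CPM, against 306 CPM in IgG, and its ratio interval of 0.901 to 1.15 includes 1. Meox2 was at 111 CPM in the same female 5E1 cells, against 165 CPM in IgG, with an interval of 0.554 to 0.820. In smooth muscle-like cells 0 of 7 factors were past 2-fold in either direction, against 3.05% of genes lower and 1.06% higher, and in pericyte-like cells 0 of 7, against 2.46% lower and 1.41% higher. Tbx4 in pericyte-like cells was at 60.2 CPM in 5E1 and 40.4 CPM in IgG, a ratio of 1.49 (1.10 to 2.02), while Tbx5 gave 1.08 (0.928 to 1.26). In female 5E1 cells of this class Tbx4 was at 55.9 CPM from 22 UMIs, and its ratio interval of 0.824 to 2.23 includes 1. Thinning moved its log2 ratio from 0.57 to 0.24. In mesothelial-like cells 1 of 8 factors was at least 2-fold lower in 5E1 and 0 higher, against 2.52% and 2.07% of genes. It was Osr2, with 11 UMIs in 5E1 and 31 in IgG, 2.16-fold lower in 5E1 (1.05 to 4.76). Twist2 there was at 27.1 CPM in 5E1 and 47.8 CPM in IgG, 1.77-fold lower in 5E1 (1.20 to 2.64). The direction of Twist2 turned after thinning, which leaves few counts, from a log2 ratio of -0.81 to 0.40. In female 5E1 cells its ratio interval of 0.262 to 1.02 includes 1.

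Osr1 differed with the reporter in 3 classes, of which matrix fibroblast-like cells only in IgG. In matrix fibroblast-like cells it was at 23.3 CPM in cells with and 22.4 CPM in cells without a reporter UMI in 5E1, a ratio of 1.04 (0.699 to 1.57), and at 55.4 and 37.5 CPM in IgG, a ratio of 1.48 (1.19 to 1.84). The other 2 classes had less Osr1 in cells with the reporter. In smooth muscle-like cells Osr1 was at 289 CPM in cells with a reporter UMI and 346 CPM in cells without in 5E1, and at 180 and 324 CPM in IgG. The ratio of cells with to cells without was 0.834 (0.732 to 0.9501) in 5E1 and 0.556 (0.494 to 0.625) in IgG. Clusters 22 and 16 of this class differ in Osr1, with 358 and 107 CPM in 5E1 and 318 and 91.2 CPM in IgG. Their mix among cells with and without the reporter was not compared. In mesothelial-like cells Osr1 was at 86.7 CPM with and 246 CPM without the reporter in 5E1 (84 and 29 cells), and at 71.8 CPM with and 338 CPM without in IgG (142 and 27 cells). Twist2 in the same cells ran the other way, with 38 UMIs in cells with and 1 UMI in cells without the reporter in 5E1, and with 88 and 2 UMIs in IgG. The mesothelial markers summed to 11794 CPM with and 11223 CPM without the reporter in 5E1, and to 11770 and 10373 CPM in IgG, so both sets of cells carried them. A reporter UMI depends on depth, and cells without one were shallower, with median depths of 7191 UMIs in 5E1 and 6192 in IgG against 11350 and 8139 in cells with one. Osr1 was not the only factor to differ with the reporter. Meox2 in adventitial fibroblast-like cells had ratios of 1.58 (1.11 to 2.32) in 5E1 and 1.61 (1.21 to 2.16) in IgG. Tcf21 in alveolar myofibroblast-like cells had ratios of 1.54 (1.003 to 2.44) in 5E1 and 1.66 (1.28 to 2.16) in IgG.

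Genes of the same families and pathways, from lists chosen with earlier results of these data known, gave a wider view. Of 13 paralogues, 5 had at least 20 UMIs in alveolar myofibroblast-like cells and 0 were past 2-fold. All 5 were lower in 5E1, with Snai1, the close relative of Snai2, at 32.6 CPM in 5E1 and 56.1 CPM in IgG (log2 ratio -0.78) and Scx, the tendon bHLH factor, at 107 CPM in 5E1 and 140 CPM in IgG (-0.39). Of the 7 bHLH partners and inhibitors 0 were past 2-fold, with Id3 at 1077 CPM in 5E1 and 720 CPM in IgG (0.58) and Id2 at 387 CPM in 5E1 and 270 CPM in IgG (0.52), both of which encode proteins that sequester bHLH partners. Of 34 other mesenchymal transcription factors 0 were past 2-fold, 24 being higher and 10 lower, and Foxf1, a known Hedgehog-responsive factor, was at 205 CPM in 5E1 and 312 CPM in IgG (-0.61). Of 6 signals 2 were at least 2-fold lower, Bmp4 at 84.8 CPM in 5E1 and 187 CPM in IgG (-1.14) and Rspo2 with 4 UMIs in 5E1 and 21 in IgG, whose ratio interval of 0.0984 to 1.17 includes 1. Fgf10, which Tbx4 and Tbx5 are known to act on in the lung bud, was at 4.81 CPM in 5E1 and 3.59 CPM in IgG, with a ratio interval of 0.837 to 2.11.

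In matrix fibroblast-like cells 1 of 6 paralogues was at least 2-fold higher and 1 at least 2-fold lower in 5E1. The higher one was Msc, which encodes musculin, the bHLH protein most closely related to Tcf21. It had 42 UMIs in 37 cells of 5E1 and 8 UMIs in 8 cells of IgG, or 8.76 and 0.731 CPM, a ratio of 11.98 (5.56 to 29.6). Its UMIs numbered 17 in 5E1 and 7 in IgG in cluster 19, 25 and 0 in cluster 20, and 0 and 1 in cluster 14. No cell of 5E1 held more than 4 of them, female 5E1 cells held 11 of them, and immune clusters held 0 in both libraries. In adventitial fibroblast-like cells Msc was at 8.67 CPM in 5E1 and 4.18 CPM in IgG (log2 ratio 1.05). The lower one was Scx, with 10 UMIs or 2.09 CPM in 5E1 and 57 UMIs or 5.21 CPM in IgG (-1.26), close to the immune levels of 1.71 CPM in 5E1 and 4.46 CPM in IgG. In smooth muscle-like cells Scx stood at 42.1 CPM in 5E1 and 110 CPM in IgG (-1.39). Of 33 other transcription factors and 7 bHLH partners in matrix fibroblast-like cells 0 were past 2-fold. Of 7 signals 1 was, Rspo2, an R-spondin that raises Wnt signalling, at 4.59 CPM in 5E1 and 15.99 CPM in IgG (-1.77). Fgf10 was at 72.4 CPM in 5E1 and 56.3 CPM in IgG, a log2 ratio of 0.36.

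**Figure D4:**
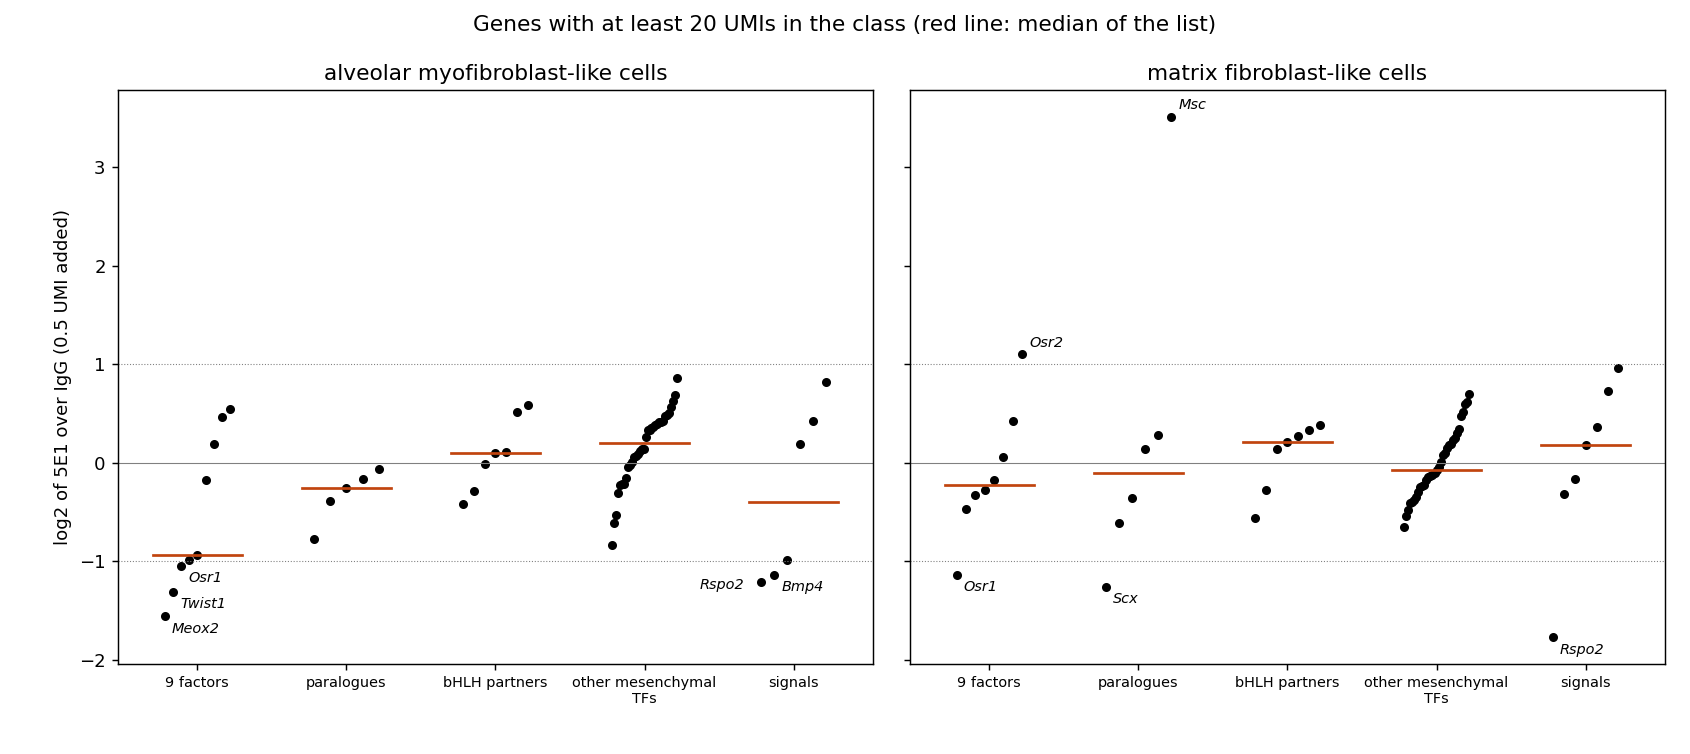
Log2 ratio of 5E1 over IgG (0.5 UMI added) for each gene with at least 20 UMIs in alveolar myofibroblast-like cells on the left and matrix fibroblast-like cells on the right, by gene list, with the median of each list in red, dotted lines at 2-fold and names for genes past it. Msc at 3.51 in matrix fibroblast-like cells lies far above the other paralogues, and most mesenchymal transcription factors lie between the dotted lines.

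List genes past 2-fold in the remaining classes are given with the number tested per list and the share of all genes tested in the class. In adventitial fibroblast-like cells Tbx18 (log2 ratio 1.55), Msc, Id4 (1.23) and Wt1 (1.80) were higher in 5E1. These were 2 of 8 paralogues, 1 of 7 bHLH partners and 1 of 35 other transcription factors, against 1.44% of all genes. In smooth muscle-like cells Runx1 (-1.11), Wnt2 (-1.29) and Scx were lower. These were 1 of 33 other transcription factors, 1 of 5 signals and 1 of 7 paralogues, against 3.05% of all genes. In pericyte-like cells Id4 (1.57), 1 of 7 bHLH partners, was higher, against 1.41% of all genes. In mesothelial-like cells Snai1 (-1.33), Foxf1 (-1.11), Heyl (-1.24) and Wnt2 (-1.08) were lower and Rspo3 (1.88) was higher, the last with 15 UMIs in 5E1 and 5 in IgG. The lower ones were 1 of 4 paralogues, 2 of 29 other transcription factors and 1 of 5 signals, against 2.52% of all genes. Rspo3 was 1 of 5 signals, against 2.07% of all genes higher.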

How the data were processed

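Droplet single-cell libraries (10x Genomics 3' v2) were read as the deposited matrices of raw UMI counts, which per the submitters' processing notes came from Cell Ranger 3.1.1 and mm10, although the matrix headers give software version 3.0.0. Its strand setting is not given in the sources used here. Cells and clusters 1 to 23 are those of the authors' deposited annotation, whose header is shifted by 1 column; barcodes outside it (10519 in 5E1 and 15021 in IgG before, 9454 and 13509 kept) were not analysed here. Clusters were joined into classes from marker lists and called "like" a type, so class names are rebuilt. No doublet caller was run; an alternative drops cells with a Ptprc, Pecam1, Cdh5 or Epcam UMI.

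For each class, the UMIs of a gene in a library were divided by all UMIs there (CPM). Exact Poisson intervals cover levels, exact conditional binomial intervals ratios, and Clopper-Pearson intervals shares of cells, at 95%. A gene counts as past 2-fold at a log2 ratio of at least 1 in size with 0.5 UMI added and at least 20 UMIs over both libraries. Shares were taken after thinning to 1000 UMIs, leaving out shallower cells. With 1 library per condition no test was made, since cells are not replicates. Genes most like a factor have the highest Pearson correlation of log2(CPM + 1) over 23 clusters among 12539 genes with at least 200 UMIs. Named genes are the 9 factors, the 3 genes most like each, list genes past 2-fold and up to 3 others per list. The factors and lists were chosen with earlier results of these data known. Upstream sequences come from RefSeq (GRCm38.p6) and matched 5 of 9 factors, and coordinates from GENCODE vM21. Interval scripts were tested on simulated data. Python 3.11.15, numpy 2.4.6, scipy 1.17.1, pandas 2.3.3 and matplotlib 3.10.9 were used.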

Additional observations from a re-analysis of the deposited data

Results flagged for a closer look

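Factors whose ratio of 5E1 over IgG lay above 1 in one class and below 1 in another, with counting intervals on opposite sides, were taken for a closer look. With 1 library per condition these differences between classes were not tested. Tbx5 had a log2 ratio of 0.46 in alveolar myofibroblast-like cells and -0.33 in matrix fibroblast-like cells. Snai2 had 0.19 in alveolar myofibroblast-like cells and -0.18 in matrix fibroblast-like cells, but 0.03 and -0.19 in female 5E1 cells (Xist detected, no Y-linked UMI), where both counting intervals include 1. Osr1 had 0.37 in smooth muscle-like cells, where it was 0.01 in female 5E1 cells and -0.25 in those of cluster 22, and -1.14 in matrix fibroblast-like cells. Tcf21 had 0.57 in smooth muscle-like cells and -0.99 in alveolar myofibroblast-like cells, the second at a level not far above that of the immune clusters. In IgG the smooth muscle-like level was no further above it, at 32.05 CPM. The smooth muscle-like log2 ratio of Tcf21 was 0.20 with clusters weighted alike, 0.40 without cluster 16 and 0.87 in female 5E1 cells.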

How the results depend on the processing

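Every factor past 2-fold kept its direction under all alternatives run, and the cause of each change below was not tested. No share of all genes is given for these alternatives, so the counts of factors below, in every class, have no background beside them. They show only how the counts move with the setting. In alveolar myofibroblast-like cells 5 factors instead of 3 were lower at a threshold of 1.5-fold and 5 when cells were thinned to 1000 UMIs, which leaves few counts. Osr1 there fell just short of 2-fold with clusters weighted alike (log2 ratio -0.93) and with median-ratio scaling (-0.97), and Twist1 without cluster 12 (-0.99). In matrix fibroblast-like cells 0 factors were lower after thinning, and the count of higher ones was 0 with clusters weighted alike, 0 at a minimum of 100 UMIs and 2 with no minimum. In adventitial fibroblast-like cells 1 factor was lower after thinning. In smooth muscle-like cells 1 was lower after thinning and 1 with no minimum, and 1 was higher after thinning and 1 with the immune level subtracted. In mesothelial-like cells the count of lower factors was 3 after thinning, 2 among female 5E1 cells (Xist detected, no Y-linked UMI), 2 without possible doublets, 5 at 1.5-fold, 0 at a minimum of 100 UMIs and 2 with no minimum. Thinning moved Tbx5 in cluster 13 of IgG to 231 CPM from 182 CPM, and Osr2 in cluster 18 of IgG to 77.9 CPM from 59.5 CPM. Subtracting the immune level, and leaving out clusters 12, 14 or 16, were chosen after seeing the data. No paired analysis was possible because each condition has 1 library. Sex, cluster makeup and the antibody differ together between the 2 libraries and cannot be told apart beyond the values given, and counts under about 100 UMIs, such as those of Twist1 and Osr2 outside cluster 18, limit what can be read.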
